A study of Brassica rapa subsp. pekinensis with 6 samples.

Results

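FLOWERING LOCUS C (FLC) is a MADS-box transcription factor that holds back flowering until a plant has passed through a long period of cold. In Arabidopsis, FLC represses the flowering integrators FT and SOC1, and cold silences FLC through VIN3 proteins and Polycomb complexes, which leave a repressive histone mark on the gene. Antisense transcripts that start beyond the 3' end of FLC, known as COOLAIR in Arabidopsis, also appear in the cold. Chinese cabbage (Brassica rapa subsp. pekinensis) carries several FLC copies, the paralogs described here, which it owes to ancient whole-genome multiplication.

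The transcripts described are the 4 annotated FLC rows of the deposited transcript table together with every assembled row that shared their gene or overlapped their span. The table marks each row with a class code that states how it relates to the annotation. Class 0 rows are annotated, class j rows are assembled isoforms that share a splice junction with an annotated transcript, and class x rows lie on the opposite strand. By this rule 11 of 57931 rows were members, of which 4 were class 0, 5 were class j and 2 were class x, and the 4 paralogs were 4 of 39371 loci. No row of class o, which overlaps an annotated exon in another way, was found.

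RNA came from germinated seeds of the double haploid line 'FT', with 3 Nor libraries and 3 Ver libraries. A culture dish was counted as a biological repetition, and whether a dish gave seeds to both groups is not given in the sources used here. After germination, Nor seeds stayed at room temperature for about 48 hours and Ver seeds at 4 °C for 25 days, both in the dark. The groups were harvested at the same length, so that the cold and the longer time were applied together and cannot be told apart. No other line, genotype or cold duration was in these libraries, and each library pooled several seeds. The estimated counts of a library summed to between 83976912 and 104903263. In bulk RNA, fewer cells that express a gene and less RNA per cell cannot be told apart.

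Seed storage genes differed between the groups. The summed FPKM of 17 oleosin rows lay between 20.3 and 23.3 in Nor and between 1046 and 1080 in Ver, and that of 4 cruciferin rows between 11.9 and 13.4 in Nor and between 128 and 133 in Ver. Rows of napin or 2S albumin, 13 in number, summed to 56.8 to 59.9 FPKM in Nor and 281 to 307 in Ver. Each of these rows was detected, and their part in the changes of the FLC transcripts was not tested.

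Coordinates are those of the B. rapa v3.0 build. BraA02g003340.3C, on the minus strand of chromosome A02 from 1616321 to 1619579, had 7 exons that added up to 591 bases, or 197 codons. Its assembled isoform MSTRG.3323.2 started at the same base but ended 814 bp short of the annotated 3' end, and at least 321 of its 912 bases lay in annotated introns. BraA03g004170.3C, on the minus strand of A03 from 1785605 to 1788549, had 7 exons and 594 bases. Its isoform MSTRG.6236.1 had 6 exons and 2257 bases, ran 526 bp past the annotated 3' end, and had at least 1137 bases in annotated introns. These minimum figures follow from spans and exon lengths, since the table holds no exon boundaries.

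BraA10g027720.3C, on the plus strand of A10 from 18122666 to 18127006, had 6 exons and 594 bases. Its isoform MSTRG.30187.1 had 8 exons and 1281 bases and extended 107 bp before the annotated start and 907 bp past the annotated end. BraA03g015950.3C, on the plus strand of A03 from 7336775 to 7338542, was the shortest annotated form, with 3 exons and 465 bases or 155 codons. Its isoform MSTRG.7152.1 had 4 exons and 1207 bases and ran 3180 bp past the annotated end. There it entered the span of BraA03g015960.3C, a further gene described as FLC-like that starts 2470 bp downstream and was not a member. MSTRG.7152.4, which was a member through its gene identifier, lay at this next gene from 7341805 to 7343411, so its counts were not added to BraA03g015950.3C.

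Both antisense transcripts had 2 exons. MSTRG.6235.1 covered 2840 bp of the BraA03g004170.3C span, from 1785079 to 1788444 on the plus strand, with a single intron of 2885 bp between 481 bases of exon. MSTRG.30188.1 lay at the 3' end of BraA10g027720.3C, from 18126842 to 18127893 on the minus strand, and overlapped only the last 165 bp of the annotated span. It lay wholly within the span of the longer sense isoform MSTRG.30187.1, which ran from 18122559 to 18127913. Likewise, MSTRG.6235.1 lay wholly within the span of the sense isoform MSTRG.6236.1.

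**Figure D1:**
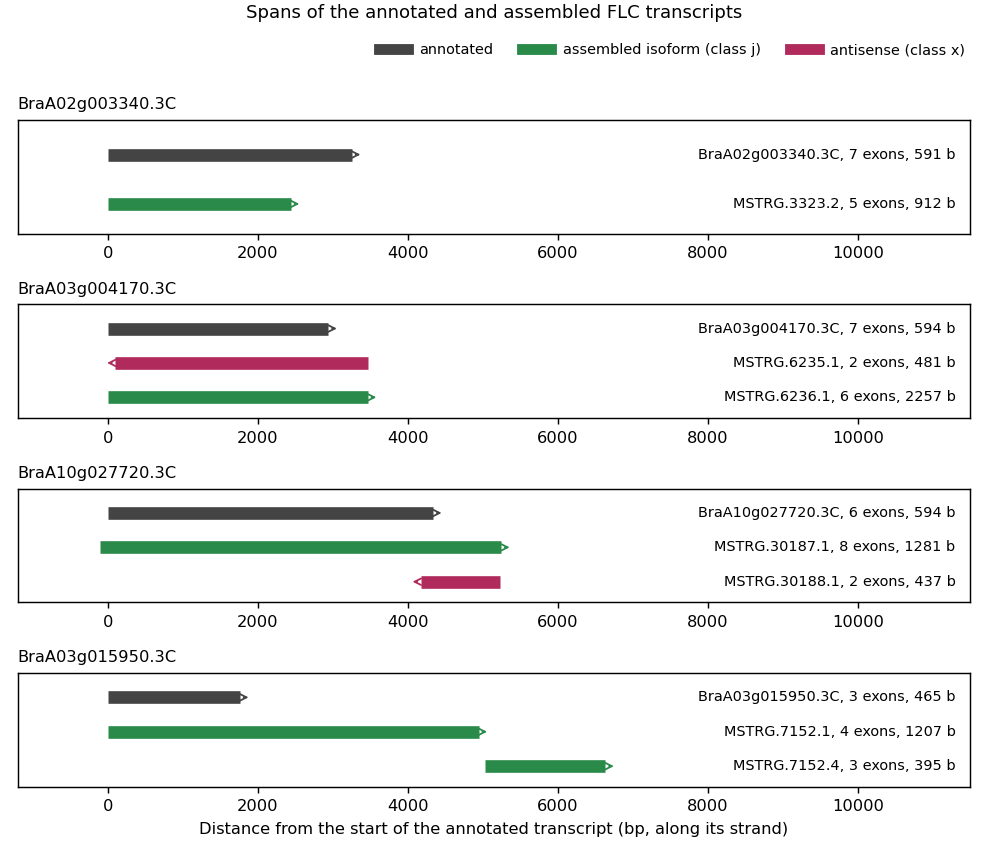
Spans of the 11 member transcripts at the 4 paralogs, drawn in bp from the start of the annotated transcript along its own strand, with arrows for the direction of transcription. Bars show whole spans with introns included, and the text beside each gives exon number and exon length, so that MSTRG.3323.2 is seen to end 814 bp early and MSTRG.7152.1 to run 3180 bp past the annotated end.

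The study designed qRT-PCR primers for BraA03g004170.3C and BraA02g003340.3C, among mRNAs it picked at random from those it found differentially expressed. It reported lower expression of both genes after vernalization by qRT-PCR, and it also assayed them after different lengths of cold. The primers are shown as the sequences its assay was designed with. They were not matched to the paralogs here, so which copies they amplify was not tested. Written 5' to 3', with capitals for a primer that the same table also lists for another gene, BraA07g013350.3C, they were:
BraA03g004170.3C forward: ggtcctttgccacgacttgt
BraA03g004170.3C reverse: tgaaagaacggcttgtttaccac
BraA02g003340.3C forward: caaagcggcaacggagg
BraA02g003340.3C reverse: CGTCTTCTCAAACTTCCTTGTCTT

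The RNA of all 4 paralogs was lower in Ver than in Nor. A locus sum, the annotated row plus the sense isoforms over it, was called when the edgeR quasi-likelihood test gave a Benjamini-Hochberg adjusted p of at most 0.05 over all loci and the log2 fold change exceeded 1 in size. All 4 locus sums were called lower and none higher, where 9.21% of the 34116 loci tested were called lower. Every Nor library lay above every Ver library at each of the 4, as at 31.5% of the loci tested.

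BraA03g004170.3C summed to 1946, 1714 and 2203 estimated counts in Nor and to 107, 104 and 104 in Ver. The Ver libraries were almost equal, and every one lay far below every Nor library. The log2 fold change was -4.22 (SE 0.08, edgeR adjusted p = 1.54e-07), and 0.774% of tested loci had a fall as large. BraA02g003340.3C summed to 1916, 1331 and 1722 counts in Nor and to 220, 237 and 186 in Ver. No Ver library came near a Nor library, and the log2 fold change was -2.95 (SE 0.14, edgeR adjusted p = 7.33e-06).

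The other paralogs were weaker in both groups. BraA10g027720.3C summed to 458, 378 and 472 counts in Nor and to 62, 67 and 62 in Ver. The groups were again apart, with a log2 fold change of -2.78 (SE 0.12, edgeR adjusted p = 5.2e-06). BraA03g015950.3C summed to 127, 154 and 159 counts in Nor and to 14, 39 and 27 in Ver. This was the paralog with the fewest counts and, relative to its level, the widest spread in Ver, yet the groups did not overlap, and the log2 fold change was -2.48 (SE 0.39, edgeR adjusted p = 0.00195). Most of its counts were those of MSTRG.7152.1, which runs into the next FLC-like gene. How many of them came from that gene was not tested.

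**Figure D2:**
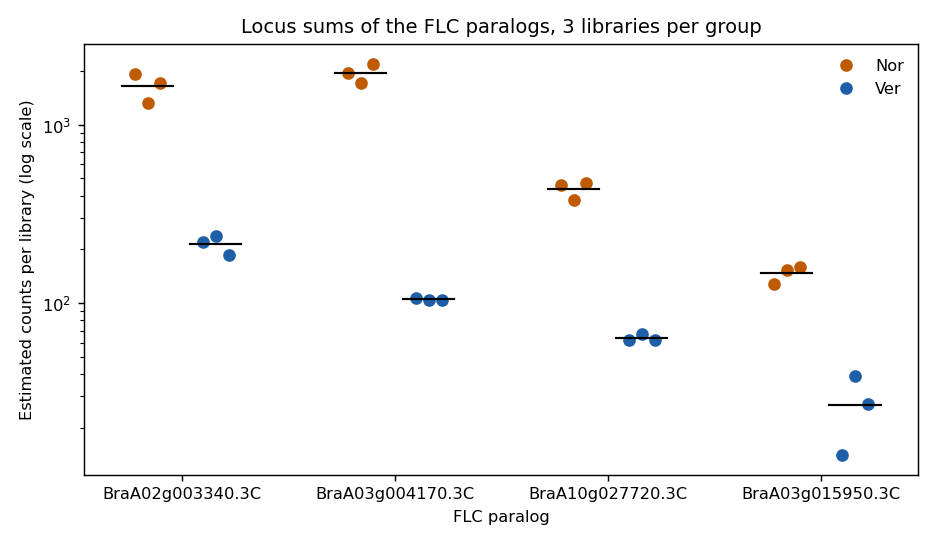
Estimated counts of each FLC paralog, annotated row plus sense isoforms, in each library on a log axis, with Nor in orange, Ver in blue and the group mean as a line (n = 3 per group). The groups do not overlap at any paralog, and the widest gap is at BraA03g004170.3C, with 1714 to 2203 counts in Nor and 104 to 107 in Ver.

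Per length, the summed FPKM of BraA02g003340.3C was 20.3 ± 2.34 in Nor (SD, n = 3) and that of BraA03g004170.3C was 18.8 ± 1.47. These neighbours in the order overlapped, with 18.4 to 22.9 FPKM for BraA02g003340.3C and 17.6 to 20.4 FPKM for BraA03g004170.3C. BraA10g027720.3C followed at 2.70 ± 0.12 FPKM and BraA03g015950.3C at 1.13 ± 0.27 FPKM, and neither overlapped another paralog. In Ver the order stayed the same and no neighbours overlapped, with 2.31 ± 0.30, 0.738 ± 0.20, 0.409 ± 0.019 and 0.175 ± 0.095 FPKM.

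The 4 locus sums added up to 4447, 3577 and 4556 counts in Nor and to 403, 447 and 379 in Ver. The total fell from 43.3 ± 1.37 to 4.22 ± 0.436 CPM, the count scaled to library size (SD, n = 3), which is 10.3-fold. The composition of this remaining FLC RNA differed as well. BraA03g004170.3C held 43.8%, 47.9% and 48.4% of the total over the Nor libraries, against 26.6%, 23.3% and 27.4% over the Ver libraries. It held the largest share of counts in each Nor library and came second to BraA02g003340.3C in each Ver library, and the groups did not overlap.

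BraA02g003340.3C took 39.4% ± 3.24 of the total in Nor and 52.2% ± 2.84 in Ver, and BraA10g027720.3C took 10.4% ± 0.141 in Nor and 15.6% ± 0.705 in Ver. Neither overlapped between groups, whereas the share of BraA03g015950.3C did, at 2.86% to 4.31% in Nor and 3.47% to 8.73% in Ver. For each of the first 3 paralogs the two-sided exact permutation test gave p = 0.1, the smallest that 3 against 3 libraries allow, and for BraA03g015950.3C the exact p was 0.3. Shares of a total are tied to each other, so a lower share of 1 paralog raises the others.

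Ratios between pairs of paralogs within a library do not have that tie to the total. The log2 ratio of BraA02g003340.3C to BraA03g004170.3C was -0.02, -0.36 and -0.36 in Nor and 1.04, 1.19 and 0.84 in Ver. On counts the ratio changed side, from near even to an excess of BraA02g003340.3C in every Ver library. In FPKM, BraA02g003340.3C already held the larger share in Nor 1 (51.8% against 39.9%) and Nor 2 (45.3% against 44.9%), and in Nor 3 BraA03g004170.3C did (46.7% against 44.7%). BraA03g004170.3C fell more than BraA10g027720.3C by 1.44 on the log2 scale and more than BraA03g015950.3C by 1.64, also without overlap of the groups. Of 6 pairs, the 3 with BraA03g004170.3C had an exact permutation p of 0.1 (0.2 after Benjamini-Hochberg adjustment over the 6). The other 3 pairs overlapped, with differences of -0.17, -0.37 and -0.20 and exact permutation p-values between 0.3 and 0.7, which does not show that those paralogs fell alike.

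**Figure D3:**
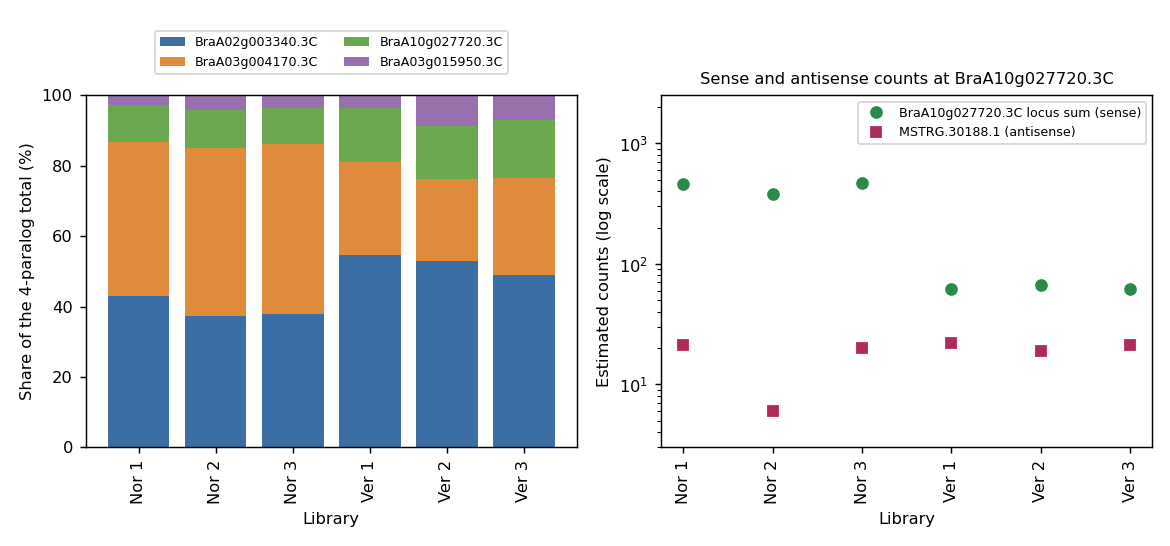
Left, share of the 4-paralog total of estimated counts held by each FLC paralog in each library, in percent. Right, estimated counts of the sense locus sum of BraA10g027720.3C (circles) and of the antisense transcript MSTRG.30188.1 (squares) in each library on a log axis, where the sense counts drop from between 378 and 472 to between 62 and 67 and the antisense counts stay between 6 and 22.

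At the level of single transcripts, 8 of the 11 members had enough counts to be tested. Of these, 6 were called lower in Ver and 0 higher, where 6.43% of the 49360 transcripts tested were called lower and 6.39% higher, and 2 were tested and not called. Every Nor library lay above every Ver library for 7 of the 11 members, of which 1 was not tested, a pattern shown by 23.6% of all tested transcripts.

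The annotated form of BraA02g003340.3C had Nor counts of 1762, 1123 and 1370 and Ver counts of 66, 145 and 133. It was low in all Ver libraries and lowest in Ver 1, and it fell by 3.64 on the log2 scale (SE 0.35, edgeR adjusted p = 0.00143). The shortened isoform MSTRG.3323.2 had Nor counts of 154, 208 and 352 and Ver counts of 154, 92 and 53. Ver 1 equalled Nor 1, so the groups overlapped, and the log2 difference of -1.24 (SE 0.52) was not called (edgeR adjusted p = 0.148).

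The share of the BraA02g003340.3C locus held by the annotated form was therefore 92.0%, 84.4% and 79.6% in Nor, compared with 30.0%, 61.2% and 71.5% in Ver. All Ver shares were below all Nor shares, with Ver 1 far below the other Ver libraries. Wilson 95% intervals, which cover counting error only and treat estimated counts as counted fragments, were 90.7% to 93.1% for Nor 1 and 24.3% to 36.4% for Ver 1. The mean share went from 85.3% ± 6.25 to 54.2% ± 21.6 (SD, n = 3), a difference of -31.07 percentage points (exact permutation p = 0.1, the smallest possible), and -18.95 points without Ver 1.

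The annotated form of BraA03g004170.3C had Nor counts of 1259, 1087 and 1492 and Ver counts of 51, 18 and 56. All Ver values were a small remnant, with Ver 2 the lowest, and the log2 fold change was -4.94 (SE 0.49, edgeR adjusted p = 0.00162). The isoform with intron sequence, MSTRG.6236.1, had Nor counts of 687, 627 and 711 and Ver counts of 56, 86 and 48. It was lower as well, with a log2 fold change of -3.42 (SE 0.28, edgeR adjusted p = 0.000805), but was highest among the Ver libraries in the one, Ver 2, where the annotated form was lowest.

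At this locus the annotated form held 64.7%, 63.4% and 67.7% of counts in Nor and 47.7%, 17.3% and 53.9% in Ver. The Nor libraries were close together, the Ver libraries were lower and scattered, and the groups did not overlap. The mean share was 65.3% ± 2.21 in Nor and 39.6% ± 19.6 in Ver, a difference of -25.67 points (exact permutation p = 0.1, the smallest possible), and -14.53 points without Ver 2.

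In BraA10g027720.3C nearly all counts belonged to the longer assembled isoform. MSTRG.30187.1 had Nor counts of 438, 376 and 449 and Ver counts of 53, 67 and 54, and it was called lower with a log2 fold change of -2.87 (SE 0.17, edgeR adjusted p = 0.000274). The annotated row had Nor counts of 20, 2 and 23 and Ver counts of 9, 0 and 8, too few for the test and with overlapping groups. Its share was 4.37%, 0.529% and 4.87% in Nor, compared with 14.5%, 0% and 12.9% in Ver, and it overlapped too (exact permutation p = 0.4). The 0 in Ver 2 came from 67 locus counts, which allow a share of up to 4.48%. The annotated row alone therefore held a minor part of the counts of this paralog in every library.

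At BraA03g015950.3C, too, the assembled isoform held most counts. MSTRG.7152.1, which reaches into the next FLC-like gene, had Nor counts of 105, 124 and 155 and Ver counts of 13, 36 and 26, with a log2 fold change of -2.37 (SE 0.44, edgeR adjusted p = 0.0139). The annotated row had Nor counts of 22, 30 and 4 and Ver counts of 1, 3 and 1. It was low throughout and not tested, but the Ver libraries were at or below 3 counts each, so that its mean level was at least 6.54-fold lower in Ver. This bound rests on Nor 1 and Nor 2, since Nor 3 had only 4 counts, and it was 4.15-fold without Nor 2 and 9.19-fold without Nor 3. The annotated form held 2.52% to 19.5% of the locus in Nor and 3.70% to 7.69% in Ver, and the groups overlapped (exact permutation p = 0.4).

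MSTRG.7152.4, at the neighbouring FLC-like gene, had Nor counts of 46, 49 and 25 and Ver counts of 6, 2 and 6. All Ver values were below all Nor values, and the log2 fold change was -3.11 (SE 0.59, edgeR adjusted p = 0.015). The call of MSTRG.7152.4 was lost without Nor 1, Nor 2 or Ver 3 (edgeR adjusted p = 0.0522, 0.0509 and 0.0523) and that of MSTRG.7152.1 without Ver 3 (0.0548).

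**Figure D4:**
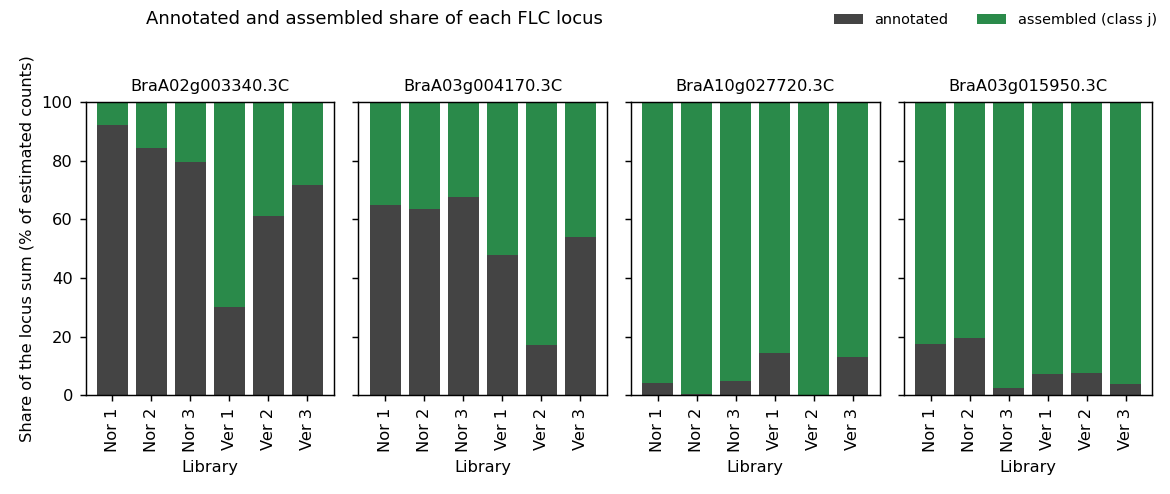
Share of estimated counts of each FLC locus held by the annotated transcript (grey) and the assembled class j isoform (green) in each library, in percent. The annotated share is lower in every Ver than in every Nor library at BraA02g003340.3C and BraA03g004170.3C, and at the other paralogs the assembled isoform holds at least 80.5% in all libraries.

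Across the 4 paralogs, assembled isoforms held 31.1%, 37.3% and 36.6% of the counts in Nor and 68.5%, 62.9% and 47.8% in Ver. The share was higher in each Ver library than in any Nor library (35.0% ± 3.39 against 59.7% ± 10.7, exact permutation p = 0.1, the smallest possible). A model of isoform usage, which tests whether a transcript changed more than its locus, made no call at either locus it could test. For MSTRG.3323.2 the relative change was 1.70 on the log2 scale (unadjusted p = 0.0404, adjusted p = 0.996 in edgeR), and for MSTRG.6236.1 it was 0.80 (adjusted p = 1 in edgeR). This model called 0.727% of 26129 transcripts and 1.39% of 10880 loci, and the 2 FLC loci had an adjusted p of 1 when the transcripts of each were combined. With 104 to 237 counts at these loci in Ver, the Wilson intervals of a share were 12.03 to 18.82 points wide.

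At BraA10g027720.3C the sense RNA was called lower and the antisense transcript at its 3' end was not. MSTRG.30188.1 had Nor counts of 21, 6 and 20 and Ver counts of 22, 19 and 21. Only Nor 2 was low, the groups overlapped, and the log2 difference of 0.43 (SE 0.48) was not called (edgeR adjusted p = 0.585, 15.7% of 375 class x transcripts tested were called). Per 100 sense counts there were 4.59, 1.59 and 4.24 antisense counts in Nor and 35.5, 28.4 and 33.9 in Ver. The Ver ratios were all higher by a wide margin, 32.6 ± 3.74 against 3.47 ± 1.64 (SD, n = 3, exact permutation p = 0.1, the smallest possible).

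Per length, antisense FPKM per 100 sense FPKM was 9.42 ± 4.27 in Nor and 85.3 ± 2.88 in Ver. The ratio moved with the sense counts, and a level of about 20 antisense counts in a library gives little precision. At BraA03g004170.3C, the antisense MSTRG.6235.1 had Nor counts of 8, 12 and 0 and Ver counts of 0, 8 and 0. It was listed at 0 in 3 of the 6 libraries, overlapped between groups and was too weak for the test. The library kit marks strand, but whether the counting used strand is not given in the sources used here, so sense and antisense reads where the transcripts overlap may not be fully separated.

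Genes next to the paralogs were compared in the same way. The 3 nearest annotated genes on each side of each paralog made 24 neighbours within 26127 bp, of which 23 were tested, 2 were called lower and 3 higher, where 9.21% of all loci tested were called lower and 8.53% higher. Their median log2 fold change was 0.09, against -0.0016 over all loci tested. BraA03g015960.3C, the FLC-like gene after BraA03g015950.3C, had Nor counts of 47, 54 and 31 and Ver counts of 7, 5 and 6. The groups were apart, and the log2 fold change was -2.88 (SE 0.46, edgeR adjusted p = 0.00211). Nearly all of these counts are those of the member MSTRG.7152.4 given above, since the annotated row of BraA03g015960.3C had Nor counts of 1, 5 and 6 and Ver counts of 1, 3 and 0, so this call repeats that of the member.

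The second lower neighbour was BraA02g003370.3C, described as an inositol 3-phosphate synthase, an enzyme that makes inositol phosphate from glucose phosphate. It had Nor counts of 814, 488 and 730 and Ver counts of 87, 195 and 174, with a log2 fold change of -2.16. The genes on either side of BraA02g003340.3C, whose Arabidopsis counterparts are named for their place beside FLC, were not called. BraA02g003330.3C (DOWNSTREAM OF FLC-like) had Nor counts of 616, 575 and 544 and Ver counts of 349, 326 and 353. It was lower in every Ver library, with a log2 difference of -0.77 (SE 0.12, edgeR adjusted p = 0.00159) that was below the size needed for a call. BraA02g003350.3C (UPSTREAM OF FLC) had Nor counts of 56, 20 and 12 and Ver counts of 37, 48 and 93, which overlapped.

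BraA03g004170.3C, with the steepest fall, had 961 bp to BraA03g004180.3C, an uncharacterized gene with Nor counts of 7259, 6718 and 7909 and Ver counts of 5773, 5694 and 6167. That gene was well expressed in all libraries. It was lower in every Ver library, with a log2 difference of -0.32 (SE 0.04, edgeR adjusted p = 0.000694) that was below the size needed for a call. The higher neighbours were BraA10g027740.3C (log2 fold change 1.30), BraA03g015940.3C (1.17), described as a dehydration-responsive element-binding protein 1B-like factor of the cold response, and BraA03g015980.3C (2.61).

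**Figure D5:**
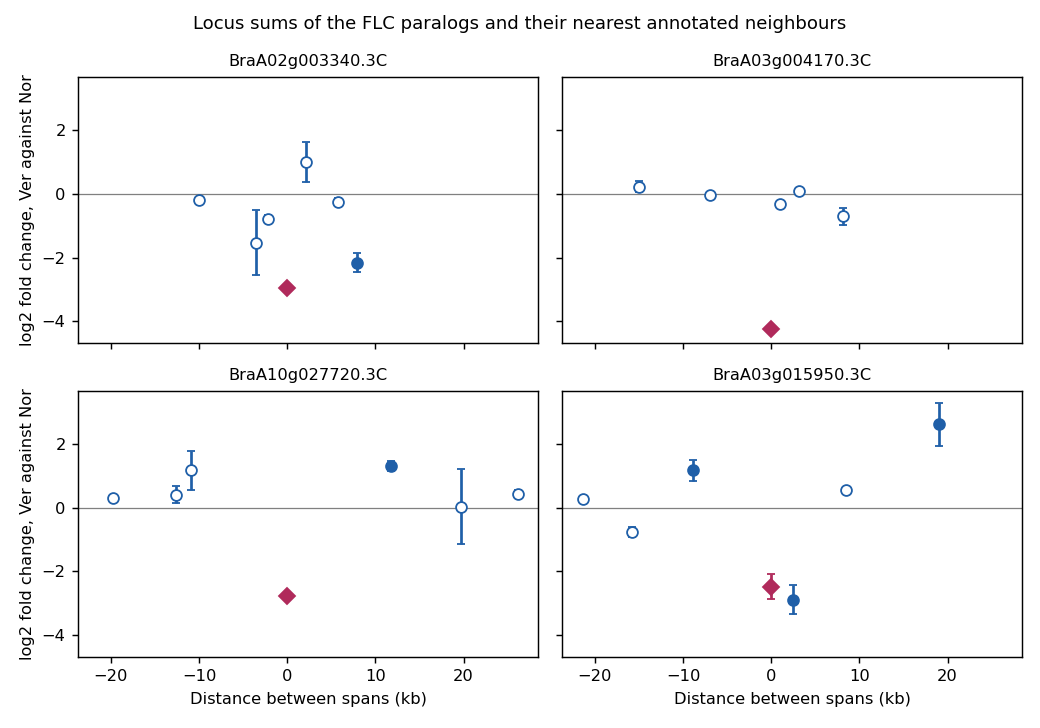
Log2 fold change, Ver against Nor, of each FLC locus sum (diamond) and its nearest annotated neighbours (circles, filled where called) against the distance between spans in kb, with SE bars that are hidden where smaller than the marker. The diamonds lie between -4.22 and -2.48, and only BraA03g015960.3C and BraA02g003370.3C among the neighbours are called lower.

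Genes of the FLC pathway were taken by their descriptions, and 65 loci matched, of which 61 were tested. Of these, 6 were called higher in Ver, 4 lower and 51 not, where 8.53% of all loci tested were called higher and 9.21% lower, and the median log2 fold change was 0.09. Among 6 relatives of FLC, of the MAF group and the FLC-like gene named above, only BraA03g015960.3C was called, and its counts are mostly those of the member MSTRG.7152.4. BraA06g028530.3C, of the MAF group, was higher in every Ver library, with Nor counts of 282, 313 and 322 and Ver counts of 441, 585 and 612. Its log2 difference of 0.81 (edgeR adjusted p = 0.004985) was below the size needed for a call, and its FPKM overlapped. The other relatives had log2 differences of -0.39 (BraA02g044910.3C), 0.19 (BraA02g044920.3C), -1.68 (BraA02g044940.3C) and -0.096 (BraA06g028520.3C). Of 2 SVP genes, whose Arabidopsis protein pairs with FLC, none was called. BraA04g016520.3C, the SVP gene with the most counts, had Nor counts of 872, 655 and 603 and Ver counts of 1055, 598 and 1056, which overlapped. The other, BraA09g054750.3C, had Nor counts of 547, 405 and 504 and Ver counts of 812, 837 and 810, higher in every Ver library, with a log2 difference of 0.75 (edgeR adjusted p = 0.000433) that was below the size needed for a call.

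Of 17 loci matched by description as activators, which in Arabidopsis include the FRIGIDA complex that keeps FLC on, 1 was called higher and 1 lower. FRIGIDA-like and HUA2-LIKE loci are among the matches, and their action on FLC was not tested. BraA03g017910.3C, FRIGIDA-ESSENTIAL 1-like, had Nor counts of 531, 516 and 588 and Ver counts of 71, 67 and 73. The groups were far apart, with a log2 fold change of -2.97 (SE 0.12, edgeR adjusted p = 3.64e-06). BraA09g004920.3C, FRIGIDA-like protein 5, went the other way, with 0 counts in all Nor libraries and 177, 176 and 132 in Ver, at least 53.4-fold higher. The other FRIGIDA-like protein 5 locus, BraA06g034140.3C, overlapped between the groups and was not called (log2 difference -0.03). The other FRIGIDA-ESSENTIAL 1 loci were not called, with log2 differences of 0.01 for BraA05g011110.3C and 0.16 for BraA03g043940.3C. Loci described as protein FRIGIDA were higher in every Ver library but not called. Their log2 differences were 0.77 for BraA03g015670.3C and 0.54 for BraA10g009310.3C (edgeR adjusted p = 0.00061 and 0.00319). None of 13 autonomous pathway genes, which repress FLC without cold in Arabidopsis, was called, and BraA03g024410.3C, FCA-like and the one with the most counts, had a log2 difference of 0.13. Smaller differences without overlap of the groups went both ways. Examples are BraA02g004930.3C, FY-like, at 0.50 and BraA05g003560.3C, FPA, at -0.27 (edgeR adjusted p = 0.00208 and 0.000236).

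Genes of vernalization and Polycomb numbered 21, of which 18 were tested, with 2 called higher and 2 lower. The higher ones were described as VERNALIZATION INSENSITIVE 3-like, after the Arabidopsis protein that brings Polycomb to FLC in the cold. BraA06g040160.3C had Nor counts of 268, 300 and 278 and Ver counts of 1137, 1089 and 1119, clear of each other (log2 fold change 1.96, SE 0.13, edgeR adjusted p = 3.35e-05). BraA03g012460.3C rose likewise, with a log2 fold change of 1.98 (SE 0.20). BraA02g012310.3C, with the same description, was listed at 502 counts in Ver 1 and at 0 in the other 5 libraries, and was not tested. The related rows described as VIN3-like protein 1 or 2 were not called and had log2 differences below 0, of -0.65 for BraA01g007490.3C, -0.53 for BraA07g008680.3C, -0.42 for BraA08g018190.3C and -0.12 for BraA03g055570.3C. In the first 3 of these 4, every Ver library lay below every Nor library (edgeR adjusted p = 0.000246, 0.00027 and 0.00045). The loci described as VRN1 or VRN1-like, BraA01g033970.3C and BraA03g038610.3C, were also lower in every Ver library and not called. Their log2 differences were -0.53 and -0.75 (edgeR adjusted p = 0.000454 and 0.000209).

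Those called lower were BraA03g016240.3C, VAL1-like, and BraA05g026410.3C, FIE-like. VAL1 binds the FLC gene in Arabidopsis and FIE is a Polycomb subunit. BraA03g016240.3C had Nor counts of 811, 655 and 826 and Ver counts of 268, 265 and 237, without overlap (log2 fold change -1.58, SE 0.10). BraA05g026410.3C had at most 29 counts in a library, with a log2 fold change of -1.95 (SE 0.60). The other VAL1-like loci were not called, with log2 differences of 0.09 for BraA05g013890.3C and 0.26 for BraA04g021660.3C. BraA01g032910.3C, the FIE locus with the most counts, was not called either. It had Nor counts of 647, 614 and 849 and Ver counts of 669, 611 and 658 (log2 difference -0.13). Of the weak FIE-like loci, BraA05g026450.3C was not called (-0.77) and BraA05g026440.3C was not tested.

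Of 6 genes downstream of FLC, 5 were tested, 3 were called higher and none lower. BraA05g005370.3C, SOC1, a promoter of flowering that FLC represses in Arabidopsis, had Nor counts of 14, 4 and 0 and Ver counts of 396, 414 and 490. It was nearly silent in Nor and present in every Ver library, with a log2 fold change of 6.14 (SE 0.79, edgeR adjusted p = 0.000798). BraA04g031640.3C, SOC1-like, had Nor counts of 0, 11 and 22 and Ver counts of 68, 72 and 92 (edgeR adjusted p = 0.0447). BraA07g031650.3C, TWIN SISTER of FT-like, had Nor counts of 0, 9 and 6 and Ver counts of 89, 68 and 75 (edgeR adjusted p = 0.00857). These Nor values are low, so the sizes of the rises are imprecise. The gene not tested was BraA02g016700.3C, described as FLOWERING LOCUS T. It had Nor counts of 9, 0 and 21 and Ver counts of 17, 0 and 0, which overlapped.

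The 5 annotated loci whose pattern over the 6 libraries was nearest to the total of the 4 paralogs were taken from 23125 loci by the Euclidean distance of centred log2(CPM + 1) profiles. They were BraA09g036210.3C, described as a WSCP-like cysteine protease inhibitor (distance 0.157), BraA09g060110.3C, a cytosolic glyceraldehyde-3-phosphate dehydrogenase (0.182), BraA03g039990.3C, isocitrate lyase-like (0.187), BraA02g022480.3C, isochorismate synthase 1-like (0.221), and BraA01g035980.3C (0.221), for which no function is described. Isocitrate lyase is an enzyme of the glyoxylate cycle, which turns stored fat into sugar in seedlings. BraA09g036210.3C had Nor counts of 8636, 7221 and 8815 and Ver counts of 798, 853 and 789. Its mean was 85.1 CPM in Nor and 8.37 CPM in Ver, beside 43.3 and 4.22 CPM for the FLC total. These loci were picked for their likeness to that total, so a similar fall follows from the choice.

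Circular RNAs were deposited for the same libraries. None of the 976 circular RNAs overlapped the span of any of the 4 paralogs.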

How the data were processed

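Linear transcripts of 3 Nor and 3 Ver libraries were analysed. The authors trimmed reads with Cutadapt, aligned them to B. rapa v3.0 with TopHat2 (HISAT2 is also named in the submitters' processing notes) and assembled and quantified transcripts with StringTie and Ballgown. Deposited per transcript was an estimated count, a whole number proportional to FPKM times length within a library and so not a number of counted fragments. The FPKM values were deposited by the authors, with 0 written as 0.0001. The circular RNA junction read count and its normalized signal (SRPBM) were deposited by the authors, and only their positions were used. The division of reads that fit several FLC paralogs is not given in the sources used here.

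A locus sum is an annotated row plus the sense assembled rows of the same gene that overlap it. The main test was that of edgeR 4.0.16 under R 4.3.3 (TMM factors from the transcript table, filterByExpr, quasi-likelihood F test, replicates unpaired) on all transcripts or loci. The SE is the absolute log2 fold change divided by the square root of F. Calls required an adjusted p of at most 0.05, where the study used an unadjusted p of at most 0.05. Isoform usage was tested with diffSpliceDGE of edgeR. Shares and ratios were compared with two-sided exact permutation tests over the 20 arrangements of 3 against 3 libraries, whose smallest p is 0.1. A group with at most 3 counts in every library is at the floor. The p-values measure only the spread between these libraries. Alternatives were DESeq2 1.42.0, RLE factors, other filters, limma 3.58.1 on log2(FPKM + 1) and log2(FPKM + 0.1), FPKM shares, annotated rows alone, gene sums, a replicate block and each library left out. A usage test without a filter was added after seeing the data. The scripts were tested on simulated data. Python 3.11 with SciPy 1.17.1, NumPy 2.4.6, pandas 2.3.3 and matplotlib 3.10.9 served for tables and plots.

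Named genes are all members, the pathway loci called and, per role with none called, the tested one with the most counts, the 3 nearest neighbours on each side of a called paralog, of which those called and some next to a paralog are named, and the 5 loci nearest in pattern. Pathway loci named beyond this rule, all of them not called or not tested, were named after their values were seen. They include BraA02g012310.3C, BraA09g054750.3C, the relatives of FLC that were not called, the rows described as VIN3-like protein or VRN1, and the further loci of a family with a called member. The members and gene lists were chosen with earlier results of these data known.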

Additional observations from a re-analysis of the deposited data

How the results depend on the processing

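All 4 paralogs kept an adjusted p of at most 0.05 in every fit of the locus sums that tested them, and none of the results reversed. With the annotated row alone, 2 of the 4 paralogs were called instead of 4, because the annotated rows of BraA10g027720.3C and BraA03g015950.3C had too few counts to be tested. With limma on log2(FPKM + 1), the log2 fold change of BraA03g015950.3C was -0.85, that of MSTRG.7152.1 -0.65 and that of MSTRG.7152.4 -0.72, all below the size needed, and the pathway calls numbered 4 instead of 10, against 5 with a mean CPM of at least 1. In FPKM the difference in annotated share at BraA03g015950.3C was -16.31 points in place of -6.93, and the rise in share of BraA02g003340.3C was 16.13 points in place of 12.87. From annotated rows alone the difference was 17.15 points for BraA02g003340.3C and 3.20 in place of 5.17 points for BraA10g027720.3C, and the groups then overlapped for both (exact permutation p = 0.2 and 0.4).

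With a library left out, 4 to 7 members and 4 paralogs were called, 8 to 10 pathway loci, and 0 isoforms by usage. Over the same fits the antisense log2 difference ran from 0.08 to 0.67. The difference in annotated share ran from -39.71 to -18.95 points at BraA02g003340.3C, from -32.79 to -14.53 at BraA03g004170.3C, from 3.20 to 10.45 at BraA10g027720.3C and from -12.22 to -3.74 at BraA03g015950.3C, and the difference in paralog share from 11.68 to 14.73, from -22.38 to -19.68, from 4.78 to 5.46 and from 1.75 to 4.37 in that order. In their deviations from the group means, same-numbered libraries had correlations of 0.054, 0.006 and -0.007 over 34116 loci. Such values cannot show whether these libraries shared a dish. With a replicate block, 5 members in place of 6, 4 paralogs, 8 pathway loci and 0 isoforms were called, MSTRG.7152.4 losing its call (edgeR adjusted p = 0.0926), and the antisense log2 difference was 0.55. Over all features, limma on log2(FPKM + 1) called 3535 transcripts and 2841 loci, and the block 3973 transcripts, against 6324 transcripts and 6050 loci in the edgeR test. The usage test without a filter, added after seeing the data, made no call either. The SD of the annotated share among Ver libraries was 21.6 points at BraA02g003340.3C and 19.6 points at BraA03g004170.3C, beside Wilson intervals 12.03 to 18.82 points wide.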
